A study of Mus musculus with 45 samples.

Results

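This is an account of H3K9ac in the hippocampus of CK-p25 mice against their CK controls at 2 weeks after p25 was switched on. Its libraries were taken by sample title: 3 CK-p25 and 3 CK libraries, of 23 H3K9ac libraries and 45 samples in the series, over all 44165 domains of the deposited list. A domain here is a stretch of the genome enriched for the mark, shared by all libraries, and the domains together cover 53.3 Mb of the mm9 build. Both groups were adult females, 3.5 months old at collection, and tissue from the whole hippocampus was used. CK-p25 mice were double transgenic. The CK mice were control littermates, and the labels do not say which transgene they carried, nor whether each library came from a separate animal, so the p-values measure the spread between these libraries, which may be partly technical.

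Acetylation of lysine 9 on histone H3 is laid down by histone acetyltransferases, is removed by deacetylases and marks active promoters and enhancers, so its level at a domain follows how open and active that stretch of chromatin is. p25 is a truncated form of p35, the activator of the kinase Cdk5, and it keeps Cdk5 active for longer and in the wrong place. In the CK-p25 line p25 is known to be induced in forebrain excitatory neurons, and the mice are known for neuron loss and gliosis after induction. The hippocampus holds neurons, astrocytes, microglia and oligodendrocytes, and in such bulk tissue more cells of a type and more acetylation per cell cannot be told apart. No gene annotation of the mm9 build was used here, so domains are called by their coordinates (1-based), no gene, exon or promoter is assigned to them, and the cell type of the tissue was not checked against marker genes.

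Levels are given in CPM, the reads of a domain scaled to a library of 1 M reads in domains. The libraries held between 2.00 and 3.92 M reads in domains in CK mice and between 2.75 and 4.13 M in CK-p25 mice. The cross correlation given in the labels, a measure of ChIP enrichment, was 0.128, 0.179 and 0.108 in CK replicates 1 to 3 and 0.187, 0.174 and 0.141 in CK-p25 replicates 1 to 3, so the ranges overlapped. The first principal component of the 6 libraries carried 31.4% of the variance and put the groups apart, at -14.6, -13.5 and -57.4 in CK and 14.9, 28.9 and 41.7 in CK-p25 mice. CK replicate 3 was the library farthest out and also the shallowest.

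At 2 weeks called gains of acetylation were more numerous and larger than called losses over all tested domains. In the quartile of highest mean level, losses were the more numerous (202 against 129 gains). Of 38193 domains with enough reads to test, 811 (2.12%) passed an adjusted p of 0.05 in edgeR's quasi-likelihood test, 577 higher in CK-p25 mice (1.51% of those tested) and 234 lower (0.613%). The gains had a median log2 change of 1.09 (quartiles 0.68 and 1.5), and 321 of them were at least 2-fold and 51 at least 4-fold. The losses had a median of -0.39 (quartiles -0.47 and -0.35), and 6 of them were at least 2-fold and none at least 4-fold. The median over all tested domains was -0.0035. Scaling libraries to their reads in domains sets the bulk of domains near 0. This median therefore cannot show a rise or fall of the mark as a whole, and gains and losses are relative to that bulk. Another 5972 domains were not tested for lack of reads, and they were narrow, with a median width of 205 bp against 956 bp for those tested.

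**Figure D1:**
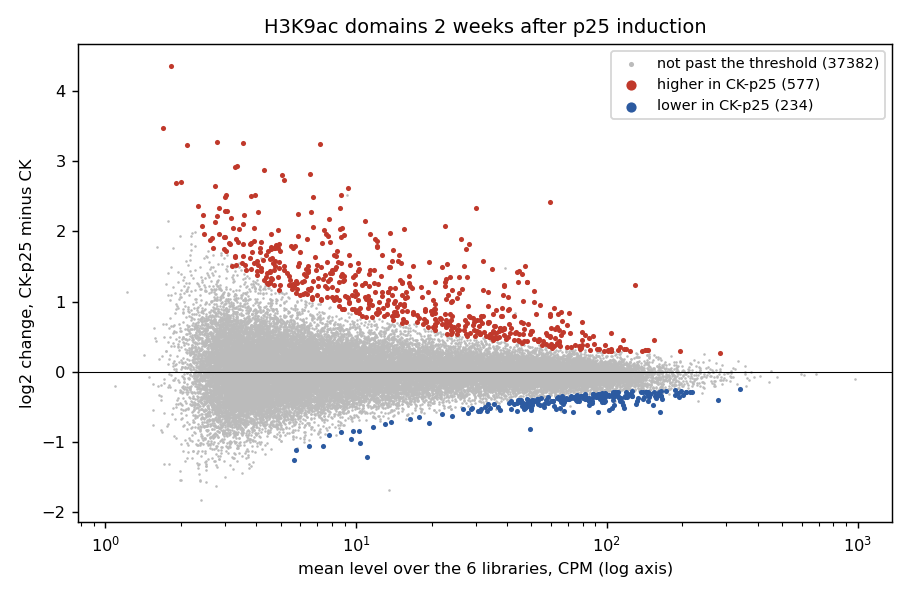
Log2 change in H3K9ac (CK-p25 minus CK, vertical axis) against the mean level over the 6 libraries in CPM (log axis) for the 38193 tested domains. Red points are the 577 domains past the threshold that were higher in CK-p25 mice, blue points the 234 that were lower, and grey points the rest. Gains spread over low, middle and high levels, while most losses lie to the right at small changes.

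The count of calls depended on single libraries and on the test. Without CK replicate 2 it was 419 (318 higher and 101 lower), without CK-p25 replicate 2 it was 422 (350 and 72), and without CK-p25 replicate 3 it was 501 (380 and 121). Losses alone also fell to 141 without CK replicate 3. DESeq2's Wald test called 304 domains, 265 higher and 39 lower, and at an unadjusted p under 0.05 edgeR's test held 4043 domains. With cross correlation as a covariate the count was 784. In each setting whose split is given here, gains outnumbered losses.

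The 12 gains with the smallest adjusted p were between 1455 and 4758 bp wide and rose by 1.24 to 2.42 on the log2 scale. First among them was chr16:23609351-23612236, a domain of 2886 bp. It measured 17.2, 19.1 and 19 CPM in CK replicates 1 to 3 and 82.7, 98.8 and 120.4 CPM in CK-p25 replicates 1 to 3. Every CK-p25 library was far above every CK library, and the fitted change was 5.36-fold (log2 2.42 ± 0.13 SE, edgeR adjusted p = 1.17e-32).

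A gain of nearly the same fold was found at a domain of lower CPM in CK mice, chr5:115346882-115348607. Levels were 10.1, 9.04 and 11.3 CPM in CK and 44.3, 55.3 and 50.3 CPM in CK-p25 mice. The groups lay far apart, with a fitted change of 5.02 times the control (log2 2.33 ± 0.17 SE, edgeR adjusted p = 1.87e-21). The same pattern was seen at chr19:12535693-12538254, with 7.96, 9.55 and 7.69 CPM in CK and 32.0, 39.4 and 38.6 CPM in CK-p25 mice, with CK-p25 replicate 1 the lowest of its group.

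Domains of higher CPM in CK mice than these also gained, where CPM is not scaled to the width of a domain. The domain chr11:48682057-48686814, the widest of the 12 at 4758 bp, measured 81.3, 69.7 and 82.6 CPM in CK and 162, 187 and 196 CPM in CK-p25 mice. The fitted change was 2.36-fold (log2 1.24 ± 0.09 SE, edgeR adjusted p = 4.25e-22), a smaller fold than at the domain on chromosome 16 but the largest rise in CPM among the 12. At chr14:56222081-56224150 the 3 CK libraries held 19.7, 25.3 and 28.7 CPM and the CK-p25 libraries 64.8, 72.0 and 72.7 CPM. At chr8:123259581-123264105 the CK libraries agreed closely, at 23.5, 23.5 and 24.6 CPM, against 56.8, 69.1 and 66.1 CPM in CK-p25 mice. The groups did not overlap at any of the 12, where 8.25% of all tested domains had every CK-p25 library above every CK library. These 12 were picked on the same libraries, so the separation describes the pick and carries no test.

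The 12 losses with the smallest adjusted p, taken from those of 0.3 or more on the log2 scale, were wider, from 2880 to 11099 bp, and fell by 0.39 to 0.81 on the log2 scale. The one with the smallest p was chr19:10528976-10531855, at 61.6, 58.6 and 70.3 CPM in CK and 38.9, 34.7 and 32.7 CPM in CK-p25 mice. Its change was -0.81 ± 0.12 (log2, SE; edgeR adjusted p = 2.43e-07), the largest of the 12. The domain chr11:98185122-98191515 held 199.9, 179 and 205 CPM in CK and 146, 117 and 126 CPM in CK-p25 mice. No library of either group lay in the range of the other, and the log2 change was -0.57 ± 0.08 (SE).

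In some lost domains the CK libraries agreed closely. At chr2:28061404-28068757, of 7354 bp, the CK libraries measured 179.8, 178 and 176 CPM against 151, 121 and 109 CPM in CK-p25 mice (log2 -0.47 ± 0.08 SE, edgeR adjusted p = 4.11e-05). At chr18:61081121-61092219, the widest of the 12 at 11099 bp, levels went from 328, 306 and 313 CPM to 272, 228 and 212 CPM (log2 -0.40 ± 0.07 SE, edgeR adjusted p = 7.45e-05). In both domains CK-p25 replicate 1 was the library nearest to the controls. The groups did not overlap at any of the 12 losses, where 7.46% of all tested domains had every CK-p25 library below every CK library. Here too the pick was made on the same libraries, so the separation carries no test. All 24 leading domains kept their direction and their call in each of the 13 alternatives run for single domains. Those alternatives reuse the same libraries and are no separate measurement.

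**Figure D2:**
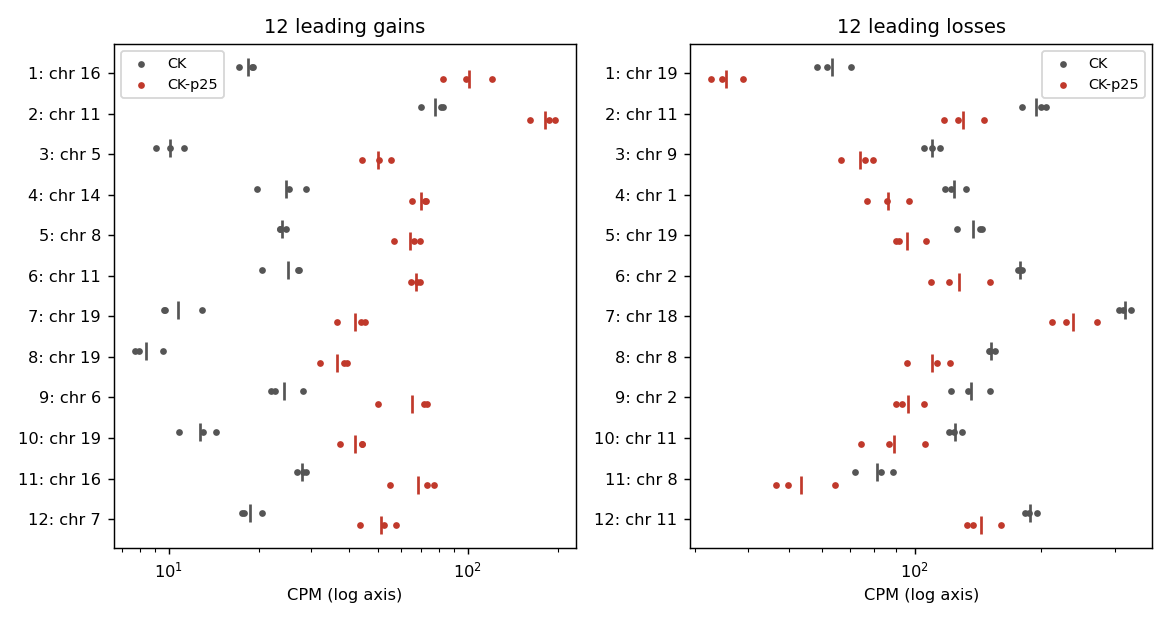
H3K9ac level in CPM (log axis) in each library for the 12 gains (left) and 12 losses (right) with the smallest adjusted p, in that order from the top and labelled by chromosome. Points are single libraries (grey CK, red CK-p25) and vertical ticks are group means; no pair of groups overlaps, and the gaps are wider among the gains.

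CK-p25 replicate 1 showed the smallest departure from the controls over the called domains as a whole. Relative to the CK mean, the median gain was 0.80, 1.13 and 1.12 on the log2 scale in CK-p25 replicates 1 to 3, and the median loss was -0.26, -0.46 and -0.50. That library was the lowest of its group at 436 of the 577 gains (75.6%) and the highest at 174 of the 234 losses (74.4%). The share of reads in gained domains was 1.13%, 1.07% and 1.06% in CK and 1.64%, 1.92% and 1.93% in CK-p25 mice. In lost domains it was 2.20%, 2.25% and 2.25% against 1.88%, 1.67% and 1.64%. These domains were chosen on the same libraries, so the values describe the calls and carry no test. Replicate 1 was the deepest of the 6 libraries and had the highest cross correlation, and the part of either in its position was not tested.

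Gains and losses differed in the width and level of the domains they touched. From the narrowest to the widest quartile of domains (limits 377, 775 and 1683 bp) there were 46, 120, 192 and 219 gains and 0, 2, 20 and 212 losses. The median called gain shrank in the same order, from 1.96 to 1.47, 1.09 and 0.60 on the log2 scale. Over all tested domains the median change by quartile was 0.015, 0.012, 0.008 and -0.020. By mean level the gains were spread, at 76, 143, 229 and 129 from the lowest to the highest quartile, while 202 of the 234 losses were in the highest. The median CK level was 8.81 CPM at gains, 87.8 CPM at losses and 9.57 CPM over all tested domains. The precision also moved with width: the median standard error of a log2 change was 0.45 in the narrowest quartile and 0.11 in the widest. A domain with a larger standard error needs a larger change to be called. No trend of gain with width can therefore be read from the medians of called gains. What part precision had in the split of losses by width was not tested.

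**Figure D3:**
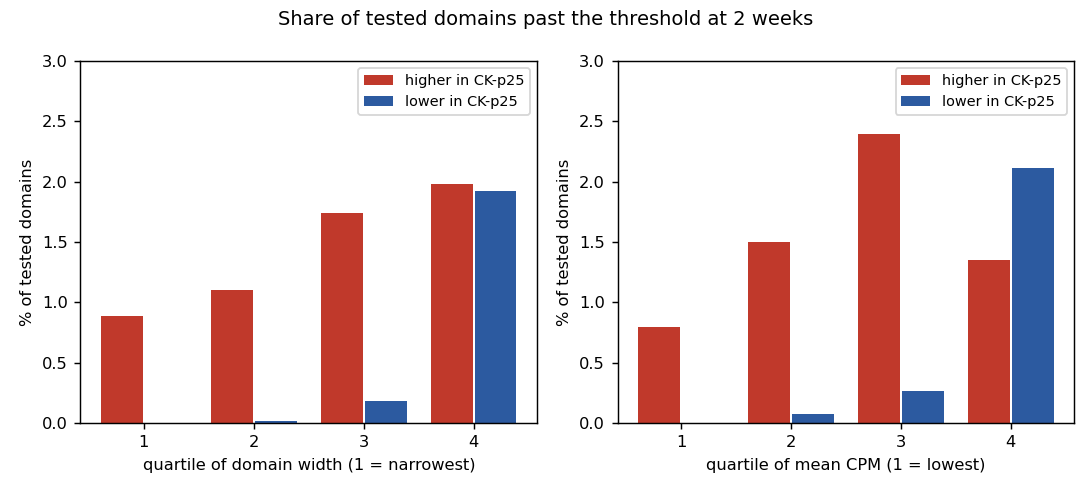
Percent of tested domains past the threshold (vertical axis), higher (red) or lower (blue) in CK-p25 mice, by quartile of domain width (left) and of mean CPM (right). Gains reach from 0.883% of the narrowest to 1.98% of the widest quartile, and losses are nearly all in the widest and most acetylated quartiles (1.92% and 2.12%).

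Within the quartile of highest level alone, the median gain was 0.52 and the median loss -0.38. Per width, lost domains were also the more densely acetylated, with a median of 24.2 CPM per kb in CK mice against 6.83 at gains and 11.2 over all tested domains. Domains of 2664 bp or more, the top 10% by width, took a share of all reads that was 41.2% ± 0.164 (SD, n = 3) in CK and 40.4% ± 0.401 (n = 3) in CK-p25 mice. The difference of -0.796 percentage points had a two-sided exact permutation p of 0.1, the smallest that 3 against 3 libraries allow, so it cannot pass 0.05 in this design.

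The smallest p among the narrowest domains belonged to chr13:103484825-103485067, of 243 bp, at 0.419, 0.516 and 0.513 CPM in CK and 5.14, 4.69 and 5.51 CPM in CK-p25 mice. Such domains rest on few control reads. Over the 3 libraries of a group this one had 4 reads in CK and 54 in CK-p25 mice, a ratio of 10.4 per library size (95% exact interval 3.84 to 39.6, counting error only). At chr7:111612968-111613683 there were 11 reads against 139, a ratio of 9.74 (5.28 to 19.97). For 2 of the 5 largest gains the control was nearly empty: chr1:173612276-173612569 had 1 CK read against 36, a ratio of 27.8 (4.67 to 1127), and chr9:119975916-119976066 had 2 against 33, a ratio of 12.7 (3.25 to 109). The first of these lost its call without CK replicate 2 (log2 change 3.63). The remaining one, chr14:44502831-44503664, had 5 reads against 67 (ratio 10.3, 4.21 to 32.9), all 5 of them in CK replicate 3, and lost its call without CK replicate 2, without CK-p25 replicate 3 and in DESeq2's test. Of all 577 gains, 3 had at most 3 CK reads and 34 had at most 10.

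The 5 largest losses whose groups did not overlap depended on single libraries and on the test. Those given here by library lay under the median CK level of all losses, 87.8 CPM. At chr2:61649434-61650024 the libraries held 11.3, 7.23 and 5.13 CPM in CK and 2.45, 3.39 and 4.41 CPM in CK-p25 mice (log2 -1.25 ± 0.33 SE, edgeR adjusted p = 0.0172). At chr9:74709706-74711771 they held 9.64, 18.6 and 18.5 CPM against 8.07, 7.82 and 3.67 CPM (log2 -1.21 ± 0.28 SE, edgeR adjusted p = 0.00918). The groups were close to touching in both. The other three, chr10:80827199-80828048, chr17:56250470-56251315 and chr1:130215072-130215769, fell by 1.11, 1.06 and 1.06 on the log2 scale. Each of the 5 lost its call in DESeq2's test and without at least 2 of the 6 libraries taken out in turn, so no loss of 2-fold size among these 5 held in every setting. The sets of libraries were CK replicates 2 and 3 for the domain on chromosome 9, and CK replicate 2 and CK-p25 replicates 1 and 3 for that on chromosome 17. For chromosome 2 they were replicates 1 and 2 of both groups, for chromosome 1 replicates 1 and 3 of both groups, and for chromosome 10 every library but CK-p25 replicate 3.

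Gains lay close together along the chromosomes. Another gain stood within 100 kb of 236 of the 577 gains (40.9%), while 9.32% of all tested domains had a gain that near. For losses the share was 26 of 234 (11.1%) against 5.30%. Among tested domains taken in order, gains formed 73 runs of 2 or more with no other tested domain between them and 19 runs of 3 or more, and losses formed 5 runs, none longer than 2. Neighbouring domains are not independent replicates of a condition.

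The longest runs held 5 gains each and were on chromosomes 3, 7, 16 and 19. The run on chromosome 7 (chr7:111462942-111656320) spanned 193 kb with log2 changes from 1.13 to 3.24. That on chromosome 16 (chr16:92694767-92826087) spanned 131 kb and was more even, from 1.19 to 1.85. All but the last of its members lay within chr16:92694767-92699091, and the last began at 92825140. The members of this run were not put through the alternatives for single domains. On chromosome 19 a run of 5 (chr19:34626100-34660522, 0.97 to 2.23) was followed by a run of 4 (chr19:34681767-34717089, 1.76 to 2.33). In the run of 5 on chromosome 19, 4 members lost their call without 1 or more of the 6 libraries, as did 3 of the 5 on chromosome 3 (chr3:142159225-142284187, 0.60 to 1.77) and none on chromosome 7. A further run of 4, chr9:119974252-119978972, was packed into 4.72 kb with changes of 1.58 to 3.47. On chromosome 17 there were 3 runs of at least 3 gains, chr17:34323430-34343083, chr17:35515879-35576693 and chr17:36135343-36158415, all within 2 Mb of one another. By chromosome the share of tested domains that gained was highest on chromosomes 19 (2.39%), 17 (2.33%) and 16 (2.24%), and 3 of 772 domains on chromosome X gained.

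Summed over bins of 1 Mb, 83 of 2266 bins passed the threshold (3.66%), 59 of them gains (2.6%) and 24 losses (1.06%). When bins were scaled by the size factors that DESeq2 took from domain counts, an alternative chosen after seeing the data, the split was 32 higher and 28 lower. Bin counts also rested on single libraries: without CK replicates 1, 2 and 3 they were 53, 24 and 28 in all, of which 39, 20 and 24 were higher. Without CK-p25 replicates 2 and 3 they were 23 and 24, of which 20 and 22 were higher. The bin with the smallest p was chromosome 7 from 111 to 112 Mb, where summed levels were 39.8, 33.9 and 28.9 CPM in CK and 82.2, 112 and 86.9 CPM in CK-p25 mice. All 8 of its tested domains had a positive change and 6 were called (log2 1.45 ± 0.13 SE, edgeR adjusted p = 2.15e-08).

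The other leading bins differed in how many domains carried the change. On chromosome 9 from 116 to 117 Mb, summed levels went from 64.5, 54.4 and 56.8 CPM to 94.7, 116 and 118 CPM, and 3 of 5 tested domains were called, most of the reads lying in chr9:116082002-116085155 (47.1 ± 5.55 CPM in CK and 84.1 ± 11.2 in CK-p25 mice, SD, n = 3 each). On chromosome 19 from 34 to 35 Mb, 9 of 22 tested domains were called higher and 18 had a positive change. On chromosome 3 from 142 to 143 Mb it was 5 of 14, with 11 positive. By contrast, chromosome 11 from 48 to 49 Mb had 1 called domain of 18, chr11:48682057-48686814 described above. Some smaller members of these bins lost their call when a library was left out: chr9:116055520-116055970 did so for every library but CK replicate 1, and chr3:142224927-142225299 for every library but CK-p25 replicate 1.

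**Figure D4:**
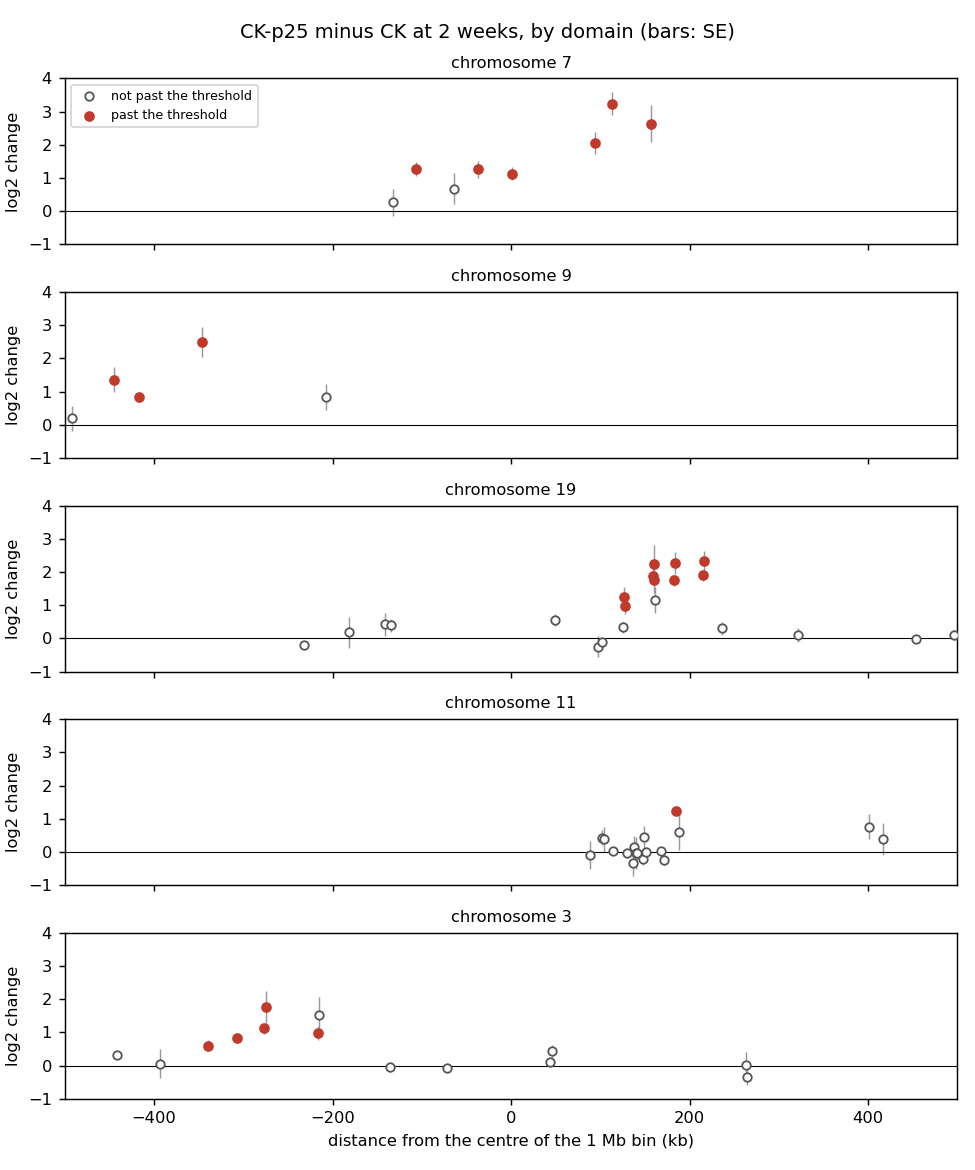
Log2 change (CK-p25 minus CK, vertical axis; bars are standard errors) of each tested domain in the 5 leading gained bins, by distance from the centre of the bin in kb. Filled red points passed the threshold and open points did not; 6 of 8 domains passed on chromosome 7, 9 of 22 on chromosome 19 and 1 of 18 on chromosome 11.

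The 5 leading lost bins changed by -0.31 to -0.15 on the log2 scale, where the 5 leading gained bins changed by 0.30 to 1.45, and 4 of these 5 lost bins held a called domain. On chromosome 3 from 101 to 102 Mb the only called domain lost its call in 6 of the alternatives. On chromosome 5 from 98 to 99 Mb the 2 called domains lost theirs in 1 and in 3. The called domain on chromosome 1 from 191 to 192 Mb kept its call in each alternative that gave it a value. The 24 lost bins fell to 4 without CK replicate 2 or 3, to 3 without CK-p25 replicate 2, to 2 without CK-p25 replicate 3 and to 14 without CK replicate 1. Chromosome 2 from 12 to 13 Mb went from 268 ± 13.7 CPM (SD, n = 3) in CK to 215 ± 11.7 CPM (n = 3) in CK-p25 mice (log2 -0.31 ± 0.06 SE, edgeR adjusted p = 0.00633), with 2 of 6 tested domains called lower and 5 negative. Most of that came from chr2:12927975-12933556, at 134, 122 and 151 CPM in CK and 105, 93.1 and 89.96 CPM in CK-p25 mice. Its second called domain, chr2:12221409-12223938, fell by 0.44 on the log2 scale and lost the call without CK replicate 3, without CK-p25 replicate 2 or 3 and in DESeq2's test. Chromosome 4 from 48 to 49 Mb passed as a bin (log2 -0.15 ± 0.03 SE, edgeR adjusted p = 0.0132) with no single domain called, 15 of its 19 tested domains being negative.

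The 6-week libraries came from mice aged 4.5 months with their own controls. The log2 change at 6 weeks was taken from these libraries, and that at 2 weeks was not. Both times were fitted together, however. The 6-week libraries thus shared in the low-count filter and in the estimate of spread behind the calls at 2 weeks. Calls at the 2 times are therefore not fully independent. Reads in domains were 3.16, 1.55 and 0.996 M in CK replicates 1 to 3 and 4.09, 3.01 and 1.31 M in CK-p25 replicates 1 to 3. Cross correlation was 0.137, 0.078 and 0.064 in CK and 0.177, 0.144 and 0.074 in CK-p25 libraries. Of the 577 gains, 560 were also higher at 6 weeks, 273 (47.3%) were called higher there against 1.32% of all tested domains, and none was called lower. Of the 234 losses, 227 were also lower, 115 (49.1%) were called lower against 1.33%, and none was called higher. The median change was 0.77 at the gains and -0.37 at the losses, where it had been 1.09 and -0.39 at 2 weeks. Domains picked for a small p tend to be overstated in the data that picked them, so the smaller median at 6 weeks is no test of a decline.

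Calls at 6 weeks were also counted by width. Among the narrowest quartile 3 of 46 gains (6.52%) were called again, where 0.346% of the tested domains of that width were. In the next quartiles it was 47 of 120 (39.2%) against 0.753%, 102 of 192 (53.1%) against 1.56%, and 121 of 219 (55.3%) against 2.10%, so the share over all tested domains rose with width too. Among losses of the widest quartile 112 of 212 (52.8%) were called again, against 3.92% of tested domains of that width. The part of read depth and enrichment at 6 weeks in these shares was not tested. The separate tau series was made with another antibody lot. At 11 months there, 202 of the 212 losses of the widest quartile (95.3%) were called lower in tau than in wild type mice. The share was 18.5% of tested domains of that width and 7.56% of all. Of the 219 gains of that width, 149 (68.0%) were called higher, against 6.65% of that width and 4.4% of all. In the narrowest quartile it was 17 of 39 (43.6%) against 2.16%. Over all widths 375 of the 570 gains tested there were called higher in tau mice and 3 were called lower. Calls in tau mice at 6 months of age, with fewer tau libraries, were not counted for these lists. The first leading gain, chr16:23609351-23612236, changed by 0.07 ± 0.15 (log2, SE) at that age and by 1.15 at 11 months. For the first leading loss, chr19:10528976-10531855, it was 0.22 ± 0.15 and -1.25. Cross correlation at 11 months did not overlap between the groups. It was 0.257, 0.206 and 0.220 in tau and 0.342, 0.302 and 0.296 in wild type libraries. The part of this difference in ChIP enrichment in the tau calls was not tested.

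**Figure D5:**
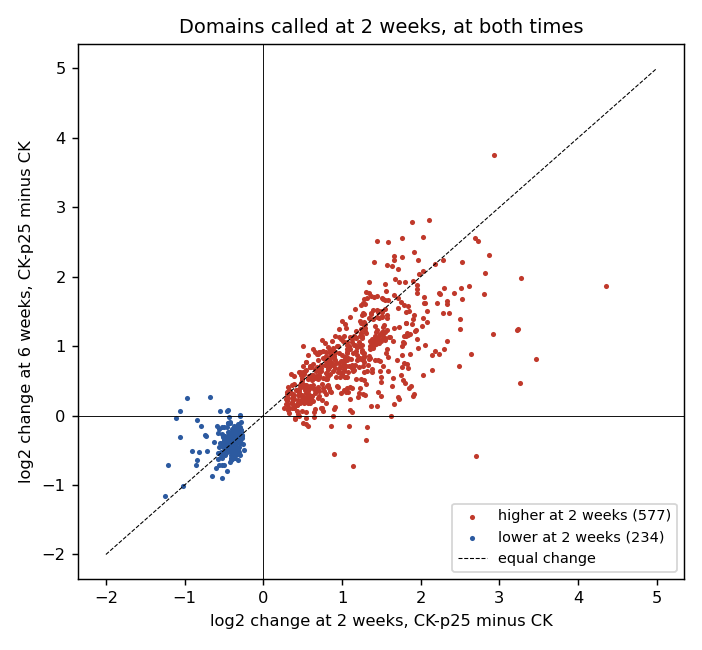
Log2 change at 6 weeks (vertical axis) against that at 2 weeks (horizontal axis), both CK-p25 minus CK, for the 577 gains (red) and 234 losses (blue) called at 2 weeks; the dashed line marks equal change. At 6 weeks 560 gains lie above 0 and 227 losses below 0, with many gains under the dashed line.

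All 12 leading gains and 10 of the 12 leading losses were called at 6 weeks as well. The domain on chromosome 16 from 23609351 measured 23.4, 25 and 19.5 CPM in CK and 73.6, 83.7 and 81.9 CPM in CK-p25 mice at 6 weeks, again with no overlap. Each of the 12 gains was smaller at 6 weeks than at 2 weeks, but none of these differences passed the test (smallest edgeR adjusted p of the difference 0.964). The 2 leading losses not called at 6 weeks were chr9:106554205-106560104 (log2 -0.25 ± 0.11 SE, edgeR adjusted p = 0.289) and chr8:126953163-126958093 (-0.30 ± 0.10, edgeR adjusted p = 0.0679). Both were still negative, and the smallest edgeR adjusted p of the difference among the leading losses was 0.999.

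Over all 38193 domains the effect of p25 differed between the times at 2 (0.00524%) in edgeR's test and at none in DESeq2's test. At an unadjusted p under 0.05 edgeR's test held 1817 of the 38193. That is no more than such a threshold lets through when no domain differs. At chr10:99062373-99063196 the 2-week libraries held 11.7, 5.94 and 6.15 CPM in CK and 15.7, 14.6 and 22 CPM in CK-p25 mice, while at 6 weeks they held 15.0, 19.1 and 23.6 CPM against 11.5, 9.71 and 11.6 CPM. CK-p25 mice were thus the higher group at 2 weeks and the lower at 6 weeks. Its gain at 2 weeks lost the call without CK replicate 2 (log2 0.88). At chr12:73333955-73338359 the groups overlapped at 2 weeks, at 98.5, 93.7 and 108 CPM in CK and 105, 97.5 and 102 CPM in CK-p25 mice, and lay apart at 6 weeks, at 107, 121 and 134 against 76.6, 83.1 and 64.1 CPM.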

How the data were processed

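H3K9ac ChIP-seq libraries were single-end reads from an Illumina HiSeq instrument, per the labels' protocols. The deposited table holds raw read counts per library over 44165 common domains, made by the authors on mm9. The submitters' processing notes name BWA, Picard and MACS2 without roles, and how the domains were called is not stated in them. The score column of the authors' domain list is 0 throughout and was not used. Counts of the 12 CK-p25-series libraries were fitted with edgeR 4.0.16 (TMM scaling, low-count filter by group, robust quasi-likelihood F test, one mean per group), with Benjamini-Hochberg adjustment over all tested domains and a threshold of 0.05. The 11 tau-series libraries were fitted apart. CPM use TMM-scaled library sizes, and standard errors are the log2 change divided by the root of F. DESeq2 1.42.0 was an alternative. Scripts were tested on simulated data. Intervals of read ratios were taken on reads pooled over the libraries of a group. They cover counting error only and leave out the spread between libraries. Reads carry no molecular identifiers. The libraries follow from their titles, but the comparison, its rules and its lists were chosen with earlier results of these data known. Domains named are the 12 of smallest adjusted p per direction with a log2 change of at least 0.3, the first per width quartile, the 5 largest with groups not overlapping, called members of 5 bins per direction, and those differing between times; the runs were chosen for length after their values were seen. The gene table at hand is for another build (GRCm38), coordinates were not converted, and so no gene was assigned, preset gene lists were not tested and no sequence is printed.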

Additional observations from a re-analysis of the deposited data

Results flagged for a closer look

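In the test of the difference itself, 2 domains responded to p25 otherwise at 6 weeks than at 2 weeks. At chr10:99062373-99063196 the log2 change at 6 weeks minus that at 2 weeks was -1.86, the change being 1.14 ± 0.23 (SE) at 2 weeks and -0.72 ± 0.24 at 6 weeks. The difference lost its call without CK replicate 2 (-1.60) or CK-p25 replicate 3 (-1.68) of 2 weeks, without CK replicate 2 (-1.81) or 3 (-1.74) of 6 weeks, and in DESeq2's test (-1.90). At chr12:73333955-73338359 the difference was -0.66, from 0.04 ± 0.09 to -0.62 ± 0.10. It lost its call with cross correlation as a covariate, in DESeq2's test and without any 1 of 8 of the 12 libraries, at values between -0.60 and -0.68.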

How the results depend on the processing

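Of 61 named domains, 40 kept direction and call in each alternative that gave them a value, 21 lost the call in at least 1 and 0 reversed. DESeq2's test gave a value for 54 of them, the 6 libraries alone for 58 and the fit without CK-p25 replicate 2 for 60. Domain counts stayed within 1.5 times of 811 with other scalings, no low-count filter, the 6 libraries alone, the cross-correlation covariate and autosomes alone. An adjusted p of 0.01 gave 472 (378 higher, 94 lower) and DESeq2's Wald test 304 (265 and 39), the latter with an adjusted p for 31528 domains. Leaving out 1 library gave 419 to 979 domains (318 to 654 higher, 72 to 325 lower), 23 to 94 bins (20 to 65 higher, 2 to 29 lower), and 0 to 8 domains for the difference between times. That difference was called at 1 domain with cross correlation as a covariate, 1 at an adjusted p of 0.01 and 0 in DESeq2. The share of reads in the widest domains moved between -0.987 and -0.587 points. Bins of 0.5 Mb gave 169 calls (112 higher, 57 lower) and bins of 2 Mb 30 (23 and 7), and the 6 libraries alone gave 41 lower bins. With size factors of the domain counts, chosen after seeing the data, 32 bins were higher. Same-numbered CK and CK-p25 libraries showed no strong shared deviation (correlations -0.0119, 0.0034 and 0.0516). So few values cannot settle whether the numbers pair the samples, and the labels do not say. A fit with the replicate block called 934 domains (617 higher, 317 lower), 113 bins (37 lower) and 5 domains for the difference. The cause was not tested for any of these shifts. The gene-list alternatives were not run. The median standard error was 0.45 (log2) in the narrowest quartile of domains and 0.11 in the widest.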
